A study of Mus musculus with 6 samples.

Results

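Ribosomal protein genes were examined in calvarial RNA of newborn mice by taking every array probe whose annotated symbol is Rpl or Rps followed by a number and at most one suffix letter (a, l, x or p), together with Rpsa, Rplp0, Rplp1 and Rplp2; mitochondrial ribosomal proteins and the S6 kinase genes were left out. The rule found 88 of 45281 probes, which stand for 59 of the 19057 named genes. Calvaria, which form the roof of the skull, came from FVB/N pups aged 3 days after birth (P3); 3 samples were wild type (WT) and 3 overexpressed the microRNA miR-34c (TG), and each was put on an Illumina bead array. The series asked what a gain of miR-34c function does to gene expression in osteoblasts. The labels call the samples biological replicates and do not give the promoter of the overexpression, the number of lines, the sex, or whether a sample is a single pup or a pool. A header inside the deposited table carries another age (P1) and other replicate numbers than the sample labels, whose names are used here.

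Ribosomal proteins are the protein part of the cytosolic ribosome. The small subunit, built from the Rps proteins and one ribosomal RNA, reads the messenger RNA, and the large subunit, built from the Rpl proteins, joins the amino acids. Their messenger RNAs are among the most abundant of most cells, start with a terminal oligopyrimidine tract, and are translated under the control of the mTORC1 kinase and the RNA-binding protein LARP1. Osteoblasts, the cells that make bone, secrete large amounts of collagen and so have a high demand for ribosomes. miR-34 microRNAs are known as transcriptional targets of p53, a factor that is itself stabilised when free ribosomal proteins bind its inhibitor Mdm2.

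The windows below show the sequence around the annotated start of genes whose values are described later, and where runs of C and T, the bases of an oligopyrimidine tract, lie in it. Each runs from 20 bases before to 10 bases after the start in the RefSeq promoter table (GRCm38.p6), read 5′ to 3′ on the gene's strand, and capitals mark the longest uninterrupted run of C and T where it had at least 5 bases. Rps25, Rpl35, Rpl37, Rps7 and Rps16 are shown because their WT and TG arrays did not overlap, Rps6 because it encodes the protein that S6 kinase phosphorylates, and Rpl36a because it had the most negative fold change among the genes of the large subunit.
Rps25, chr9:44407694-44407723, plus strand: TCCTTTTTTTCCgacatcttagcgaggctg
Rpl35, chr2:39005122-39005151, minus strand: gaagtcggccccgCCCTTTCCTCTTTCTCT
Rpl37, chr15:5116593-5116622, plus strand: gaagtagTTTCCTgggcggaagcttatcca
Rps7, chr12:28635944-28635973, minus strand: gaagagCTTCCggtttccacccacctactt
Rps16, chr7:28350669-28350698, plus strand: taaagcccgCTTCTgtcgtgacgtagcact
Rps6, chr4:86857358-86857387, minus strand: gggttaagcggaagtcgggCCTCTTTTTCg
Rpl36a, chrX:134585634-134585663, plus strand: aggaagtgcacccaggcaccgcctataaac
In Rpl35 and Rps6 the run spanned the annotated start, in Rps25, Rpl37, Rps7 and Rps16 it ended before it, and Rpl36a had no run of 5 in this window. From 30 bases before to 50 bases after the start, the window used below, longer runs were present. There the longest run had 14 bases in Rps25, 18 in Rpl35, 11 in Rpl37 and 13 in Rps7. It had 5 in Rps16, 10 in Rps6 and 13 in Rpl36a, so the printed bases do not show every run.

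Of the 59 genes, 48 had an entry in that table, and the first entry was used where a gene had several. A run of at least 8 C or T between 30 bases before and 50 bases after the start was present in 36 of the 48 (75%), against 28.9% of 27025 genes with an entry and 26.1% of the 9042 tested genes with one. The letters CTTTC on the gene's strand occurred in that window in 23 of 48 (47.9%), against 10.1% of all entries and 7.78% of tested genes. CCGGAAG, a core bound by ETS-family factors, occurred on either strand of the 300 bases in 21 of 48 (43.8%), against 9.12% of all entries and 17.4% of tested genes. AAGATGG, part of the motif of YY1, was present in 6 of 48 (12.5%), against 6.48% and 7.3%. TATAAA on the gene's strand was present in 4 of 48 (8.33%), against 8.88% of all entries, and in 4 of the 44 tested ribosomal protein genes with an entry (9.09%), against 4.92% of tested genes. The 48 genes include some that were not tested. In the 44 tested ones the C or T run was present in 75%, CTTTC in 45.45%, CCGGAAG in 43.18% and AAGATGG in 13.64%. All of these are matches of letters and were not tested as binding sites.

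Most ribosomal protein probes were far above background. At a detection p under 0.05, the array's own call that a probe exceeds its negative controls, 72 of the 88 probes were detected on all 6 arrays, 3 on 5 arrays, and 13 on 2 arrays or fewer. Probes detected on at least 3 arrays were tested, which kept 75 probes and 53 genes, and each gene is given by its brightest tested probe. For 52 of the 53 that probe was detected on all 6 arrays; the exception, Rpl39l, was detected on 3 WT and 2 TG arrays. The genes not tested were Rpl6, Rpl14 and Rpl17 of the large subunit and Rps20, Rps23 and Rpsa of the small one. Their probes had raw intensities of 110.5 to 138.8, next to negative-control medians of 116.4 to 122.2, although these proteins are general parts of the ribosome. Why the probes had no signal was not tested. A further 23 protein-coding symbols of the rule, among them Rpl5, Rpl11 and Rps27, had no named probe and were not analysed here. Ribosomal protein genes have many processed pseudogenes, and the files do not say which probes also bind their transcripts.

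The arrays were alike in median raw intensity and correlation. Median raw intensity was 125.1 to 132.6, and arrays correlated at r of 0.982 to 0.989 within groups and 0.980 to 0.989 between groups over the tested probes. That median lies close to the negative controls (medians of 116.4 to 122.2), so it says little about signal. Detected probes numbered from 19680 on WT replicate 3 to 21412 on TG replicate 3. All 9 osteoblast markers were tested, with summed linear intensities of 111806 to 139856 in WT and 109774 to 126865 in TG. Of these markers 3 had positive and 6 negative fold changes, with mean deviations of 0.24, -0.04 and 0.16 in WT and 0.01, -0.19 and -0.18 in TG. Bglap and Bglap2, which encode osteocalcin, had -0.78 ± 0.17 and -0.72 ± 0.21 (SE), TG wholly below WT, at an adjusted p of 0.9998 in limma. By Xist and Kdm5d, TG replicates 2 and 3 had a female pattern and the other 4 arrays a male one, so sex and group are partly confounded. Uty, the other Y-linked gene tested, had 6.07, 5.73 and 5.86 in WT and 5.36, 5.14 and 5.14 in TG. By Uty, TG replicate 1 lay below every WT array and nearer to the other TG arrays. The Y-linked covariate used below is the mean of Kdm5d and Uty. With it, the group difference rests mostly on TG replicate 1, the only TG array with Kdm5d near WT (7.17, against 6.99 to 7.36). Values below are normalised log2 intensities, and a fold change is TG minus WT on that scale.

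No ribosomal protein gene passed the test between TG and WT, and most had slightly higher values in TG. At an adjusted p under 0.05, limma called 0 of 75 ribosomal protein probes and 0 of 53 genes, next to 0% of 20632 probes and 0% of 11204 genes on the whole array (smallest adjusted p = 0.9998). At an unadjusted p under 0.05 there was 1 ribosomal protein gene, Rps25, higher in TG, while 2.54% of all genes were under it and 1.36% were under it and higher in TG. That count was 5 in the authors' values, 3 without background correction or with a trended variance, and 0 without WT replicate 2, TG replicate 1 or TG replicate 3. In those runs, in the same order, 297, 262, 233, 394, 343 and 249 of all 11204 genes had an unadjusted p under 0.05. The p-values rest on limma's moderated variance, which mixes a gene's spread between these samples with that of all tested probes. For Rps16 the SDs were 0.02 in WT and 0.05 in TG, and the SE was 0.11. The log2 fold change was positive for 42 genes and negative for 11, that is 79.2% positive, while 49.5% of all tested genes were positive. Their median was 0.06 (log2), and that of all tested genes was -0.001, a distance of 0.07 that was 0.03 under median scaling, with no normalisation between arrays (added after seeing the data) or with Y-linked signal as covariate. The quartiles were 0.01 and 0.11, against -0.09 and 0.09 for all genes. In bulk tissue, a different number of cells of one type and a different RNA content per cell cannot be told apart.

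**Figure D1:**
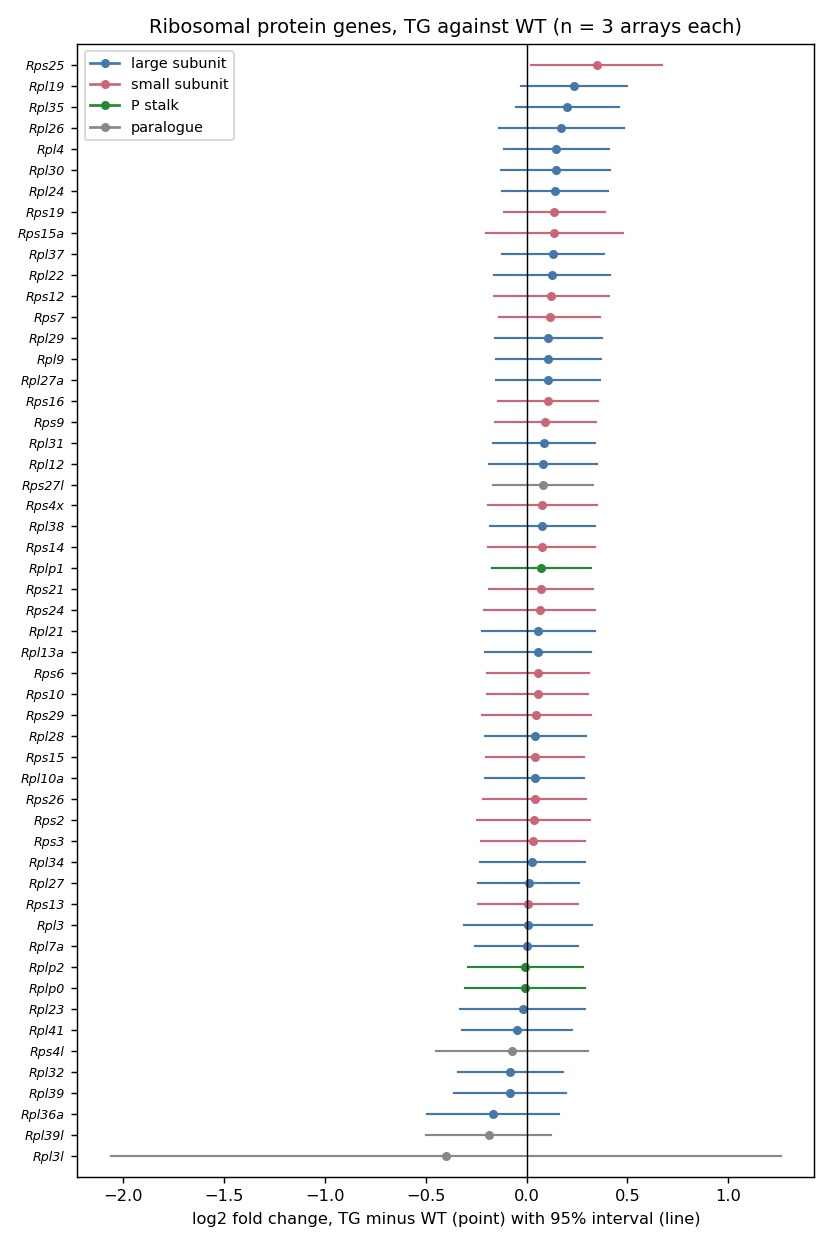
Log2 fold change (TG minus WT) of the 53 tested ribosomal protein genes, points with 95% intervals from limma, n = 3 arrays a group, coloured by subunit. Of these genes 42 lie to the right of 0, and the interval of Rps25 is the only one in the plot that does not reach 0.

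The values of ribosomal protein genes were close together. None of the 53 genes differed by 1.5-fold, while 0.625% of all tested genes did. For 51 the 95% interval lay wholly within 1.5-fold in either direction, against 76.7% of all tested genes. The exceptions were Rps25, with an interval of 0.02 to 0.67, and Rpl3l. Such narrow intervals were not particular to these genes. In lists described below they were found for 71 of 73 mitochondrial ribosomal proteins, 30 of 32 translation factors, 43 of 47 ribosome biogenesis genes and 17 of 25 mTORC1 genes. The median within-group SD was 0.08 for ribosomal protein genes and 0.17 for all tested genes. For 36 of the 53 it was under 0.1, as it was for 16.6% of all genes. Within-group SDs were not compared among genes of like brightness. The normalised scale ended at 15.42, and 23 of the 53 genes had a mean above 14; whether differences near that end were compressed was not tested. Those 23 genes had a median of 0.07 with 19 positive, and the 40 other genes above 14 had a median of -0.01 with 19 positive.

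**Figure D2:**
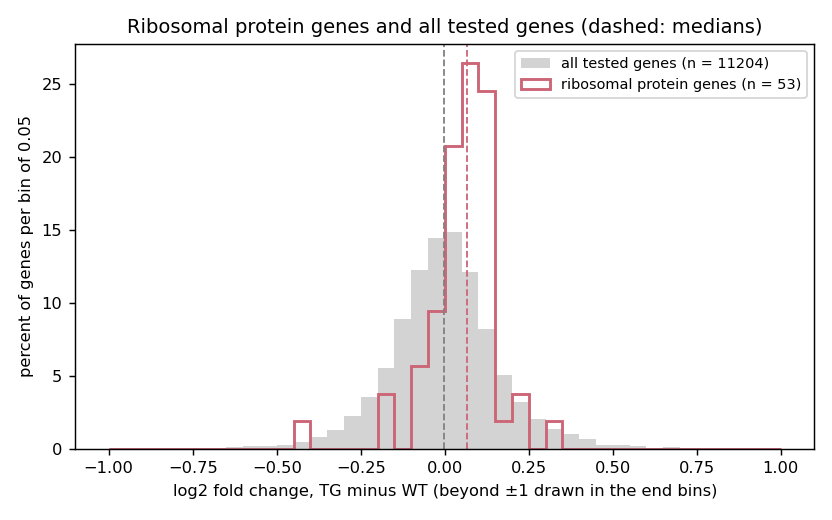
Percent of genes per bin of 0.05 in log2 fold change (TG minus WT) for all 11204 tested genes (grey) and for the 53 ribosomal protein genes (outline), with medians dashed at -0.001 and 0.06. The outline is narrower than the grey histogram and most of it lies to the right of 0.

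All 3 TG arrays lay above all 3 WT arrays for 8 of the 53 genes (15.1%), and no gene lay wholly below. Over all tested genes, 3.34% were wholly above and 3.47% wholly below. The 8 genes were Rps25, Rps19, Rps7, Rps16, Rpl19, Rpl35, Rpl37 and Rps27l. This count depended on how the arrays were put on one scale. It was 9 in the authors' own values, 10 with cyclic loess, 7 with median scaling, of which 4 were among the 8, and 2 (Rpl19 and Rpl37) with no normalisation between arrays, a setting chosen after seeing the data. The shares of all genes wholly above WT were 3.33%, 3.42%, 3.3% and 2.13% in these settings.

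**Figure D3:**
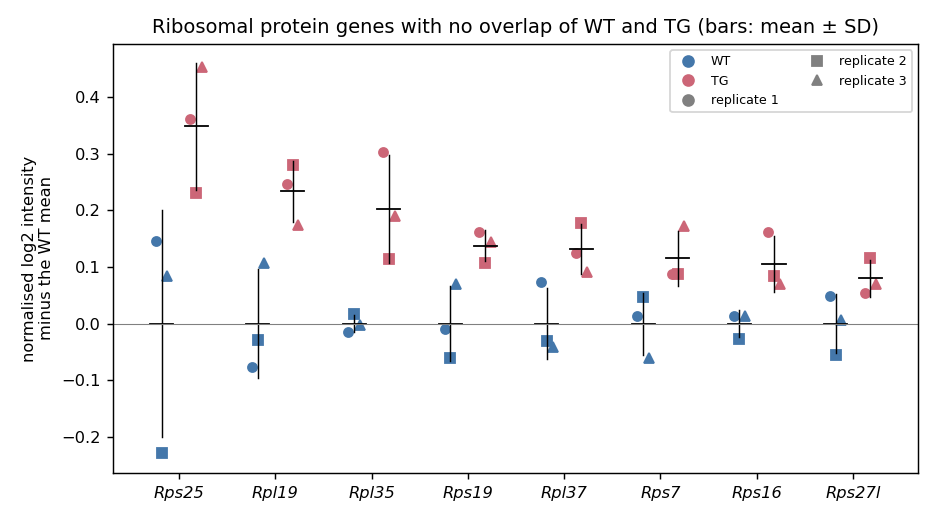
Normalised log2 intensity minus the WT mean on each array for the 8 ribosomal protein genes whose groups did not overlap, with group mean ± SD (n = 3) as bars and replicate number as symbol. The gap between the groups is under 0.1 for each gene, and Rps25 has the widest spread within WT.

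Among the small-subunit proteins, all 19 genes tested had positive log2 fold changes, from 0.01 to 0.35, with a median of 0.07, and 4 of them had no overlap of the groups, next to 49.5% positive and 3.34% wholly above WT among all genes. Positive values numbered 15 with the Y-linked covariate, where Rps2, Rps3, Rps4x and Rps13 were negative, 18 with median scaling or cyclic loess, and 16 to 19 on leaving out 1 array. Rps25, which lies at the head of the subunit and is used in initiation at some viral internal entry sites, had 12.42, 12.04 and 12.36 in WT and 12.63, 12.50 and 12.73 in TG. WT replicate 2 was the low array, and the lowest TG array was less than 0.1 above the highest WT array. TG exceeded WT by 0.35 ± 0.14 (SE; limma, unadjusted p = 0.0383, adjusted p = 0.9998), a 1.27-fold difference, and it was 0.23 to 0.42 on leaving out 1 array, where the unadjusted p reached 0.126 on dropping WT replicate 2, 0.115 on dropping TG replicate 3 and 0.0797 on dropping TG replicate 1. Before normalisation the groups did overlap, since Rps25 had raw intensities of 5654.4, 4698.2 and 4962.8 in WT and 6707.3, 5621.3 and 7112.7 in TG.

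Rps19, the gene most often mutated in human Diamond-Blackfan anaemia, had 14.31, 14.26 and 14.39 in WT and 14.48, 14.43 and 14.47 in TG. The arrays did not overlap, the difference was 0.14 ± 0.11, and a dim second Rps19 probe had -0.09. Rps7, one of the proteins that bind Mdm2, had 13.78 ± 0.05 in WT and 13.90 ± 0.05 in TG (SD, n = 3), and Rps16 had 13.69 ± 0.02 and 13.79 ± 0.05. Rps6, the substrate of S6 kinase, had 13.06 ± 0.08 in WT and 13.12 ± 0.03 in TG, with overlap. Rps14, whose loss is linked to the anaemia of human 5q- syndrome, had a log2 fold change of 0.08 ± 0.12, and Rps24 and Rps26, both also Diamond-Blackfan genes in humans, had 0.06 ± 0.12 and 0.04 ± 0.11. The intervals of Rps19, Rps7 and Rps16 covered 0, as did those of the other 4 genes. No difference was detectable in any of them with 3 arrays a group.

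Of the large-subunit proteins, 27 genes were tested, and their median was 0.08. Of these, 21 (77.8%) were higher in TG by their means and 6 lower, next to 49.5% positive among all genes. In 3 (11.1%) TG lay wholly above WT, next to 3.34% of all genes. Rpl19, a core protein often used as a reference gene, had 11.76, 11.81 and 11.95 in WT and 12.09, 12.12 and 12.02 in TG. Its groups were apart before normalisation too, with raw intensities of 3647.4, 4008.9 and 3686.7 in WT and 4639.9, 4208.9 and 4395.2 in TG. TG exceeded WT by 0.23 ± 0.11 (limma, unadjusted p = 0.0741, adjusted p = 0.9998), and 0.20 to 0.29 on leaving out 1 array.

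Rpl35, near the exit of the tunnel through which the new chain leaves, had 14.07, 14.10 and 14.08 in WT and 14.39, 14.20 and 14.28 in TG. The WT arrays were nearly identical and TG replicate 1 was the highest, with a log2 fold change of 0.20 ± 0.11. Rpl37 had 14.47 ± 0.06 in WT and 14.60 ± 0.04 in TG. Rpl26, which in human cells binds the p53 mRNA, had 0.17 ± 0.13, Rpl4 had 0.15 ± 0.11, and Rpl24 and Rpl30 each had 0.14, all with overlapping groups. With the Y-linked covariate, where TG replicate 1 carries most of the group difference, Rpl26 had -0.03 ± 0.20 and Rpl4 0.02 ± 0.18. Rpl38, whose loss in mice gives skeletal patterning defects through the translation of Hox mRNAs, had 15.04, 14.94 and 15.02 in WT and 15.18, 15.03 and 15.03 in TG, a log2 fold change of 0.08 ± 0.11. Rpl22, known for its need in T cell development, had 0.13 ± 0.12, and -0.03 with that covariate. On the negative side Rpl36a had -0.17 ± 0.14, with 13.24, 12.84 and 12.89 in WT and 12.81, 12.93 and 12.74 in TG, so that WT replicate 1 alone stood above the rest. Rpl32 had -0.08 ± 0.11 and Rpl39, a short protein of the exit tunnel, -0.08 ± 0.12, and none of the 6 negative genes had separate groups.

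The P stalk, a side arm of the large subunit that recruits elongation factors, had 1 positive and 2 negative values among its 3 genes. Rplp0 had 9.51, 9.57 and 9.74 in WT and 9.50, 9.76 and 9.53 in TG, and Rplp2 had 13.87, 13.89 and 13.93 in WT and 13.73, 14.04 and 13.89 in TG. The log2 fold changes were -0.01 ± 0.13 and -0.01 ± 0.12, and both genes' arrays were interleaved. Rplp1 had 15.31 ± 0.05 in WT and 15.39 ± 0.02 in TG, a log2 fold change of 0.07 ± 0.11 at the very end of the scale, which was -0.01 with no normalisation between arrays. Whether the stalk differed from the other proteins was not tested. A second Rplp0 probe, dim and detected on 2 WT and 3 TG arrays, had 4.91, 5.05 and 5.15 in WT and 5.53, 5.10 and 5.54 in TG, a difference of 0.36 ± 0.15 that the brighter probe did not have.

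Of the 4 paralogues, Rps27l had a positive log2 fold change and Rpl3l, Rpl39l and Rps4l negative ones. Rpl3l replaces Rpl3 in the ribosomes of skeletal and heart muscle. Rpl3l had 7.62, 9.37 and 7.76 in WT and 6.19, 8.89 and 8.46 in TG, a range over the 6 arrays of 3.18, whereas that of every other ribosomal protein gene was at most 0.68. The order of the arrays was not that of the groups, and the log2 fold change of -0.40 ± 0.72 turned to 0.43 without TG replicate 1 and 0.16 without WT replicate 2. With Y-linked signal as covariate it was -2.54 ± 0.61 (limma, adjusted p = 0.833), a value that rests mostly on TG replicate 1, the lowest array. Its general counterpart Rpl3 had 14.79, 14.48 and 14.74 in WT and 14.81, 14.70 and 14.52 in TG, a log2 fold change of 0.01 ± 0.14.

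Skeletal muscle markers ordered the 6 arrays exactly as Rpl3l did. The mean deviation of the 15 tested muscle markers (Acta1, Ckm, Myh8 and others) was -0.47, 1.09 and -0.07 in WT and -1.48, 0.66 and 0.27 in TG. Over the 6 arrays Pearson's r with Rpl3l was 0.994 (exact permutation p = 0.00139, the smallest that 720 orders allow, adjusted 0.00694) and Spearman's rho was 1 (exact permutation p = 0.00278, adjusted 0.0139), two-sided and adjusted over 5 marker lists. Without TG replicate 1 and WT replicate 2, the arrays farthest from the median, r was 0.967. The relation was chosen with the values of Rpl3l known, and both groups enter it. Within a group there are 3 arrays, too few for a value of its own. The other 4 lists, of osteoblast, chondrocyte, neutrophil and erythroid markers, had r of -0.47, 0.45, 0.59 and 0.25 with adjusted exact permutation p of 0.45, 0.45, 0.45 and 0.628.

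**Figure D4:**
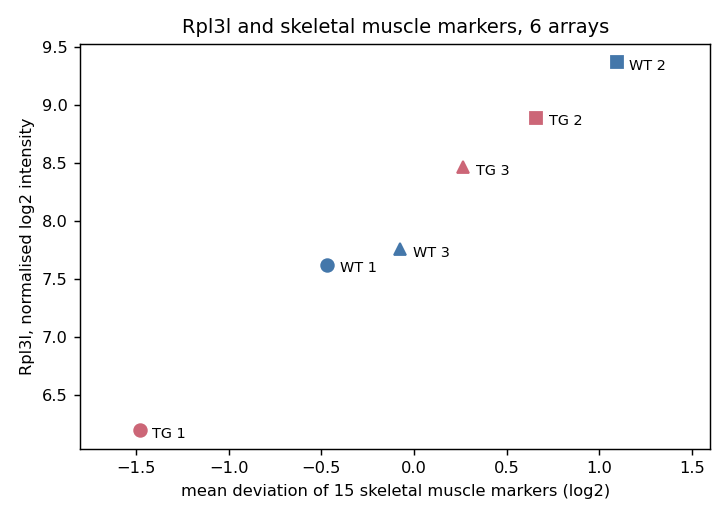
Rpl3l (normalised log2 intensity) against the mean deviation of 15 skeletal muscle markers from their own means (log2) on the 6 arrays, WT in blue and TG in red. Both rise from TG replicate 1, at 6.19 and -1.48, to WT replicate 2, at 9.37 and 1.09, with the groups mixed in between.

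Rps27l, a paralogue of Rps27 that p53 induces, had 12.57, 12.46 and 12.53 in WT and 12.57, 12.64 and 12.59 in TG. These groups were apart by under 0.01 and the log2 fold change was 0.08 ± 0.11. Rpl39l, a paralogue of Rpl39 known from male germ cells, was dim, with 5.11 ± 0.03 in WT and 4.93 ± 0.20 in TG. Its log2 fold change was -0.19 ± 0.13, and -0.06 without background correction, -0.04 in the authors' values, -0.07 without TG replicate 1 and -0.47 with the Y-linked covariate (limma, unadjusted p = 0.0308, adjusted p = 0.869). Rps4l had 7.95 ± 0.20 in WT and 7.87 ± 0.23 in TG.

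X-linked ribosomal protein genes were looked at because the arrays differed in sex pattern. Rps4x had 14.37, 14.46 and 14.30 in WT and 14.34, 14.52 and 14.51 in TG, with the female-pattern TG replicates 2 and 3 highest, by under 0.1. The X-linked Rpl36a and Rpl39 had negative log2 fold changes, which were -0.04 and -0.004 without WT replicate 1. TG minus WT does not compare the sex patterns, since TG replicate 1 had a male one by Xist and Kdm5d. On TG replicates 2 and 3 Rpl36a had 12.93 and 12.74, against 12.81 to 13.24 on the other arrays. Rpl39 had 14.39 and 14.48 there, against 14.35 to 14.63, so in neither gene were those arrays the highest. With the Y-linked covariate, the log2 fold change of Rps4x was -0.07 ± 0.18 (SE). Xist itself had 4.49 to 5.12 on WT arrays, 4.69 on TG replicate 1 and 9.17 and 9.34 on the other TG arrays.

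Genes with more than one tested probe gave a check on single probes. Of 16 such genes, 9 had the same sign on all probes and 7 did not. The 3 probes of Rps24 had 0.06, 0.22 and 0.12. For the 4 genes whose probes lay farthest apart, the lowest and highest values were -0.01 and 0.36 for Rplp0, -0.12 and 0.16 for Rpl27a, -0.12 and 0.14 for Rpl30, and -0.09 and 0.14 for Rps19. Over all 75 tested ribosomal protein probes, 59 were positive, next to 50.1% of all tested probes. TG lay wholly above WT for 11, next to 3.62% of all probes, and wholly below for 1, next to 3.93%. The last, a dim Rps13 probe at -0.12, is named after its value was seen.

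The arrays contributed unequally to the group difference. On the WT arrays 17, 17 and 21 of the 53 genes were above their own mean over all arrays, and on the TG arrays 31, 38 and 35 were. Over all tested genes these shares were 52.4%, 46.8% and 51.5% in WT and 53.7%, 47.8% and 49.2% in TG, so that the 58.5% of TG replicate 1 was close to that of all genes. The median deviation was -0.04, -0.04 and -0.02 in WT and 0.01, 0.04 and 0.03 in TG, while over all tested genes it was 0.01, -0.01 and 0.01 in WT and 0.02, -0.01 and -0.003 in TG. On TG replicate 1 ribosomal protein genes and all genes thus had nearly the same deviation, and the other arrays of TG lay above and those of WT below all genes. Leaving out any 1 array gave a median log2 fold change of 0.06 to 0.08 and 38 to 45 positive genes of 53.

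The size of the shift did depend on the normalisation. With no normalisation between arrays the ribosomal protein median was 0.03 against 0.003 for all genes, and the arrays did not sort by group, with median deviations of -0.02, 0.07 and -0.14 in WT and 0.04, -0.03 and 0.07 in TG. WT replicate 3 was the lowest by far in that setting. With median scaling the median was 0.05 against 0.02 for all genes, and with cyclic loess 0.04 against -0.002. The authors' deposited log2 values gave 0.07, with 44 of 53 positive. With the Y-linked covariate the median was 0.05, with 37 of 53 positive, while all genes had 0.02 with 53.8% positive. Among the TG arrays, that fit rests mostly on TG replicate 1.

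**Figure D5:**
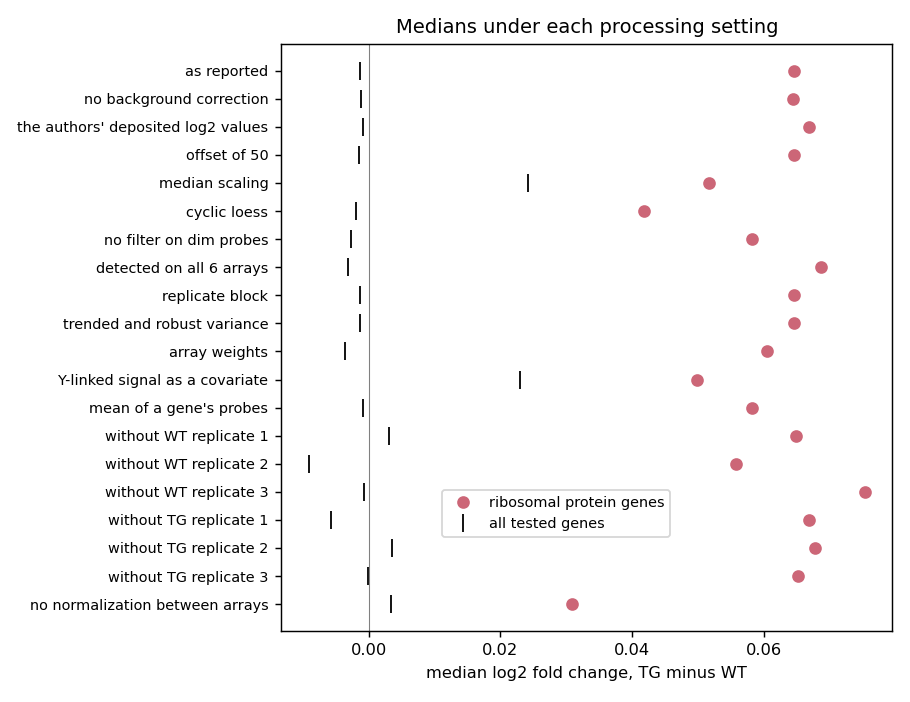
Median log2 fold change (TG minus WT) of the ribosomal protein genes (points) and of all tested genes (ticks) under each processing setting and on leaving out each array. The points are positive under every setting drawn, from 0.03 with no normalisation between arrays to 0.08 without WT replicate 3.

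Markers of other tissues also differed between the arrays, and their part in the ribosomal protein shift was not tested. Chondrocyte markers were positive for 13 of 14 tested genes, with Matn3 not tested, and their summed linear intensity was 52633 to 104278 in WT and 77368 to 118274 in TG. Neutrophil and myeloid markers were negative for all 11 tested genes, at 14164 to 18725 in WT and 9763 to 17085 in TG, and Ms4a3, Mmp8 and Cebpe were not tested. Skeletal muscle markers were negative for 14 of 15, at 79858 to 189996 in WT and 45463 to 151780 in TG, with Myh4 not tested. Of 10 named erythroid markers 4 were tested, 3 of them negative, at 15981 to 33482 in WT and 19617 to 24537 in TG. In each list the ranges of the groups overlapped, and none of the markers passed the test.

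Other genes of the translation machinery were compared through lists, none of whose members passed the test. One list joined translation factors with further mRNAs chosen for a terminal oligopyrimidine tract, and which of its genes have the tract was not checked. It had 32 tested genes, 23 of them positive and 9 negative, with a median of 0.04. In 3 of them TG lay wholly above WT (9.38%, against 3.34% of all genes). Eif2s3x, a subunit of the factor that delivers the initiator tRNA and an X-linked gene known in mice to escape X inactivation, had 9.66, 9.69 and 9.63 in WT and 9.78, 10.25 and 10.40 in TG. The high arrays were the female-pattern TG replicates 2 and 3, and TG exceeded WT by 0.48 ± 0.17 (limma, unadjusted p = 0.022, adjusted p = 0.9998). Eif3h, a subunit of initiation factor 3, had 0.29 ± 0.15, and Btf3, part of the complex that meets the new chain at the ribosome, had 12.11 ± 0.04 in WT and 12.31 ± 0.19 in TG.

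Ribosome biogenesis genes had 26 positive and 21 negative values among 47, with a median of 0.02. Nop58, a core protein of the box C/D particles that guide rRNA methylation, had 10.52, 10.12 and 10.53 in WT and 10.80, 10.85 and 10.84 in TG. The TG arrays lay within 0.05 of each other and above all WT arrays, and TG exceeded WT by 0.44 ± 0.14 (limma, unadjusted p = 0.0138, adjusted p = 0.9998). Pes1, needed for processing of large-subunit rRNA, had 0.24 ± 0.13, with overlap. Genes of mTORC1 and S6 kinase signalling had 10 positive and 15 negative values among 25, with a median of -0.04, and Tsc2, which restrains mTORC1, had 10.22 ± 0.02 in WT and 10.05 ± 0.08 in TG, without overlap. Mitochondrial ribosomal proteins, encoded by a separate set of genes, had 30 positive and 43 negative values among 73, a median of -0.02, and 4 genes wholly above and 4 wholly below WT (5.48% each, against 3.34% and 3.47% of all genes). Mrps6 had 9.14 ± 0.16 in WT and 9.51 ± 0.13 in TG, Mrpl47 had 8.46 ± 0.06 and 8.70 ± 0.12, and Mrpl57 had 5.43 ± 0.11 and 5.13 ± 0.19, with overlap in the last. The difference between the cytosolic and the mitochondrial list was not tested.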

How the data were processed

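The members and gene lists were chosen with earlier results of these data known. Intensities were deposited per probe on a linear scale, with detection p-values from the authors' table, per the file headers; the log2 values normalised by the authors come from lumi per the submitters' processing notes, with version and settings not given in the sources used here. The table's 974 control rows are unnamed; the final 936 served as negative controls, since they gave back the deposited detection p-values to within 0.00695. Symbols came from the platform annotation (34885 probes with 1 symbol, 18 with several, 10378 not named here).

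Intensities were background-corrected in limma 3.58.1 (R 4.3.3) by normexp with negative controls and an offset of 16, quantile-normalised and taken to log2. Probes detected at p under 0.05 on at least 3 arrays were tested by limma with empirical Bayes moderation, two-sided, Benjamini-Hochberg over all probes, threshold 0.05. A gene is its brightest tested probe. Named genes were the 8 smallest p per direction, genes without overlap, fixed key genes, the 4 with the most discordant probes and up to 3 per other list; not all are printed. The pipeline was tested on simulated data. The number of arrays limits precision.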

Additional observations from a re-analysis of the deposited data

How the results depend on the processing

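No ribosomal protein probe or gene passed the test under any alternative run; over all probes the count was 0 except without TG replicate 1, where it was 2, so that leaving out 1 array gave 0 to 2. The median log2 fold change of ribosomal protein genes was 0.0419 with cyclic loess, 0.0499 with the Y-linked covariate and 0.031 with no normalisation between arrays (the last chosen after seeing the data), and 0.0559 to 0.0753 on leaving out 1 array. Genes without overlap numbered 2 with no normalisation, both wholly above WT, next to 2.13% of all genes. They numbered 13 to 16 on leaving out 1 array, where groups of 2 and 3 separate more easily by construction. In those runs 11 to 15 lay wholly above WT, next to 7.38% to 9.21% of all genes. With replicate number as a replicate block, 0 ribosomal protein genes and 0 probes passed and the median stayed 0.0647. Same-numbered arrays had deviations correlating at 0.262, 0.151 and -0.169. TG replicates 1 and 2 correlated best with the WT array of their own number, and TG replicate 3 with WT replicate 2 (0.287). With 3 arrays a group, these values cannot decide whether same-numbered arrays were paired.

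Of the named genes' values, 25 changed sign and 544 kept sign and call, and the cause was not tested. With the Y-linked covariate Rps4x had -0.0665, Rps4l 0.181, Rpl26 -0.0266 and Rpl22 -0.032. With array weights Rpl3 had -0.015, Rplp0 0.00368 and Rplp2 0.0156. With no normalisation Rpl3 had -0.00784 and Rplp1 -0.0114; Rplp0 had 0.0111 with median scaling and 0.175 as the mean of its probes, and Rplp2 had 0.00208 in the authors' values. On leaving out 1 array, Rps4l ranged from -0.185 to 0.0591, Rpl3l from -0.924 to 0.426, Rpl3 from -0.0774 to 0.0883, Rplp0 from -0.0887 to 0.0584, Rplp2 from -0.0787 to 0.0762 and Rps24 from -0.0174 to 0.106.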

Other observations

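Some symbols that fall just outside the rule encode ribosomal proteins or their paralogues. Rpl22l1, a paralogue of Rpl22, had 6.85 ± 0.28 in WT and 7.15 ± 0.27 in TG (SD, n = 3), with overlap. Rps3a1, which encodes a small-subunit protein and, like Rpl14 below, was named after its values were seen, had a log2 fold change of 0.06 ± 0.12 (SE), Rpl36al 0.07 ± 0.12 and Rpl7l1 -0.07 ± 0.17. A dim Rpl14 probe, detected on 1 array and so not tested, had raw intensities of 133.6, 138.2 and 129.5 in WT and 120.4, 123.8 and 122.4 in TG, all near the negative controls.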
